A study of Homo sapiens with 6 samples.

Results

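In HEK293T cells, a human embryonic kidney line, lacking THUMPD2, the antisense row AC015712.2, which lies over the retinoic acid enzyme gene ALDH1A3, was 32.0-fold lower in the line KO1 and 12.9-fold lower in the line KO2 than in wild type (WT). The row HDDC2, which lies over the gene TPD52L1, was 17.7-fold lower in KO1 and 6.82-fold lower in KO2. The rows named ALDH1A3 and TPD52L1 themselves held few reads in any library. These 4 rows, of 59087 in the deposited count table, were chosen by name because an earlier look at the same counts had shown the fall of the first pair. Their levels in the 3 genotypes are therefore given as a description, without a test.

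Total RNA was sequenced from 6 libraries, 2 each of THUMPD2 KO#1 (KO1), THUMPD2 KO#2 (KO2) and WT cells. THUMPD2 is a methyltransferase of the U6 spliceosomal RNA, and the second line was made as a check of reproducibility. All groups share the HEK293T background. The sources used here give neither the knockout agent nor the number of clones behind each line. Nor do they say if libraries were grown as separate cultures, so that p-values may measure technical spread only. With 1 WT line, loss of THUMPD2 and any other way in which a knockout line had diverged cannot be told apart.

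ALDH1A3 encodes a cytosolic aldehyde dehydrogenase that oxidises retinal to retinoic acid, as do its relatives ALDH1A1 and ALDH1A2. Retinoic acid binds nuclear receptors of the RAR and RXR families, which regulate target genes, and ALDH1A3 is known for its part in eye and forebrain development. TPD52L1 encodes a small coiled-coil protein of the tumour protein D52 family, which binds other members of that family. HDDC2 encodes a nucleotidase with an HD domain. AC015712.2 is annotated as an antisense RNA, and the current name of its gene ID is ALDH1A3-AS1.

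AC015712.2 (ENSG00000259583.2) spans chr15:100892859-100919283 on the minus strand of GRCh38, and ALDH1A3 (ENSG00000184254.16) spans chr15:100877714-100916626 on the plus strand. Their exons share 1585 bases, 23.3% of the exonic bases of AC015712.2. HDDC2 (ENSG00000111906.17) spans chr6:125219962-125302078 on the minus strand, and TPD52L1 (ENSG00000111907.20) spans chr6:125119049-125264407 on the plus strand. They share 191 exonic bases. These are the whole of 1 HDDC2 exon, from 125219962 to 125220152, inside a TPD52L1 exon block from 125219845 to 125220193. The other HDDC2 exon blocks, of 10 in all, share no base with TPD52L1 exons. The gene size that the authors' deposited table lists for HDDC2 was also 191 bases, the length of that exon, although its exons cover 5888 bases in GENCODE v29. The table holds 1 count per row, so the place of the reads within a row was not tested.

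The stretches below are coding bases of ALDH1A3 and TPD52L1 that lie inside an exon of the opposite row. They are shown because a read over them can belong to either row, depending on the strand it is counted on. Both are given on the plus strand of GRCh38, from a GENCODE v29 transcript of each gene, at chr15:100893954-100894082 and chr6:125220078-125220152.
ALDH1A3, 129 bases: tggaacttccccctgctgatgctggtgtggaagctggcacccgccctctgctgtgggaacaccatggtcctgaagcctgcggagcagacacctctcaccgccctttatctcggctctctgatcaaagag
TPD52L1, 75 bases: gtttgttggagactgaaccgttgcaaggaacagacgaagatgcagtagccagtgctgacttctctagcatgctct

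GAPDH and VIM had few reads under their own names and many under the row on the other strand. In WT the row VIM held 339 and 352 reads, and VIM-AS1, over it, 26970 and 28026. The strand on which reads were counted is not stated in the sources used here. The glycolytic GAPDH held 202 and 181 reads in KO1, with 198 and 154 in KO2, and 126 and 150 in WT. AC006064.4, over GAPDH, held 136359 and 142186 reads in KO1, 122213 and 126941 in KO2, and 125569 and 133484 in WT. Each row is therefore named with the gene it lies over, and nothing is said of the gene whose name the row carries. THUMPD2 itself had at most 3 reads in a library (3 and 0 for KO1, 0 and 1 for KO2, 1 and 2 for WT), too few to check the genotype labels by the target. Its exons share 0 bases with a gene on the other strand, so no row over THUMPD2 could hold its reads. The few reads are thus not read as its level. Library totals ran from 7414339 to 8391143 reads. The rows of 9 markers of HEK293 cells, with the rows over them, summed to 163332 to 170992 reads in KO1, 179482 to 187407 in KO2, and 157400 to 166732 in WT. GAPDH was on this list, and AC006064.4 alone held most of each sum, so the sum says little of the other markers. Of these, PAX2, a renal factor, had at most 5 reads in a library, and LHX1 had none under its own name. The row over NEFM, a neurofilament gene of the same list, held 74 and 67 reads in KO1, 6469 and 6574 in KO2, and 719 and 772 in WT, and the row over EYA1, a renal factor, held 345 and 346 in KO1, 76 and 95 in KO2, and 113 and 136 in WT. The row over LHX1 held 1 and 0 reads in KO1, 0 and 7 in KO2, and 17 and 13 in WT. VIM-AS1, over the vimentin gene VIM, held 23367 and 25010 reads in KO1, 44695 and 47482 in KO2, and 26970 and 28026 in WT. Markers of the cells themselves thus moved with the line, in differing directions, and their part in the results was not tested. Markers of other cells were at 21 to 37 reads per library for blood, 7 to 15 for fibroblasts, 10 to 19 for endothelium and 2 to 8 for kidney tubule, and reached 476 for liver, where albumin (ALB) was at 0. The part of other cells in the results was not tested.

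AC015712.2 held 19 and 10 reads in KO1, 44 and 40 reads in KO2, and 469 and 519 reads in WT. No library of either knockout line came near a WT library, and both KO2 libraries lay above both KO1 libraries. Scaled to library size, the row averaged 1.97 ± 0.789 CPM (counts scaled to a common library size) in KO1, 4.96 ± 0.514 in KO2 and 63.9 ± 1.28 in WT (SD, n = 2 each). KO1 thus kept 3.08% of the WT level and KO2 7.76%, the lowest shares of WT among the members with enough reads to test. The log2 fold change against WT was −5.00 ± 0.21 in KO1 and −3.69 ± 0.17 in KO2 (± SE, n = 2 against 2). With the reads of each group added up, 29 were found in KO1 (95% exact Poisson interval 19.4 to 41.6), 84 in KO2 and 988 in WT. The interval covers counting error only, since reads that carry no molecular identifier may be copies of 1 molecule. In bulk RNA, fewer cells with the transcript and less of it per cell cannot be told apart.

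The row named ALDH1A3 had 0 and 0 reads in KO1, 0 and 2 in KO2, and 1 and 0 in WT. As for GAPDH above, reads under a gene's own name are not read as the level of its transcript. The groups overlapped and the row did not pass the filter on low counts, so a difference was not detectable at this depth. It was also the 1 member without an entry in the authors' deposited table. Another antisense row, AC015712.7, lies within ALDH1A3 without sharing an exonic base with it, and was looked at after its values were seen. It had 0 reads in all 4 knockout libraries, and 5 and 8 reads in WT. AC015712.5, which overlaps ALDH1A3 on the same strand, had no reads in any library.

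HDDC2 held 50 and 60 reads in KO1, 165 and 166 reads in KO2, and 1005 and 1052 reads in WT. The order of the genotypes was that of AC015712.2, with WT highest, KO1 lowest and no overlap between groups. The row averaged 7.55 ± 1.28 CPM in KO1, 19.5 ± 0.627 in KO2 and 133 ± 2.57 in WT (SD, n = 2 each). KO1 kept 5.67% of the WT level and KO2 14.7%. Its log2 fold change against WT was −4.14 ± 0.13 in KO1 and −2.77 ± 0.11 in KO2 (± SE, n = 2 against 2).

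The row named TPD52L1, likewise not read as the level of that gene's transcript, held 17 and 11 reads in KO1, 41 and 42 reads in KO2, and 28 and 46 reads in WT. KO1 lay below the other groups, while KO2 lay within the WT range. Against WT the log2 fold change was −1.31 ± 0.38 in KO1 and 0.04 ± 0.33 in KO2, that is 40.1% and 103% of the WT level in CPM. In KO2 the sign turned with 1 library, at −0.23 without WT library 1 and 0.38 without WT library 2. In KO1 the value was −0.97 without WT library 2.

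**Figure D1:**
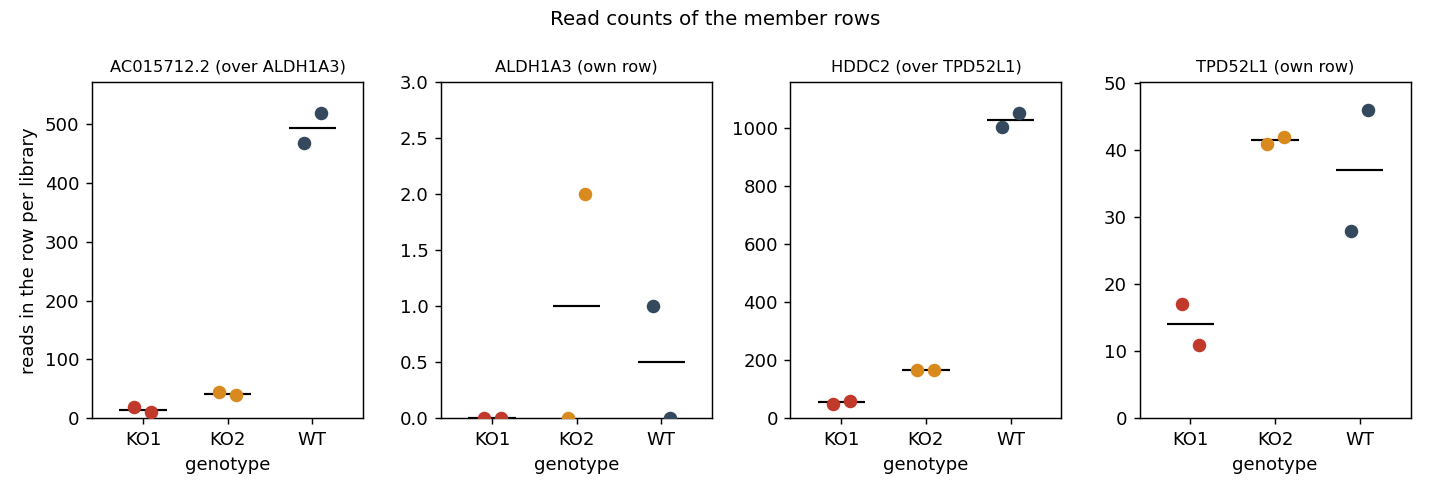
Reads per library (y axis, linear, 1 scale per panel) in the 4 rows for KO1, KO2 and WT, with 1 point per library and a line at the mean of the 2 libraries. AC015712.2 and HDDC2 were at 10 to 60 reads in KO1 and 40 to 166 in KO2, against 469 to 1052 in WT, whereas TPD52L1 in KO2 (41 and 42 reads) lay within the WT range and ALDH1A3 had at most 2 reads.

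Among 14184 rows tested across the whole table, 0.698% were fitted at least 8-fold lower in KO1 and 0.430% in KO2. Of the 3 members that passed the filter on low counts, AC015712.2 and HDDC2 were past that fold in KO1 and AC015712.2 in KO2; nothing is read from these counts, since the rows were chosen by this fall. From the lowest log2 fold change upwards, AC015712.2 was the 45th row in KO1 and the 42nd in KO2. HDDC2 was the 61st row in KO1 and the 68th in KO2. In the authors' deposited table, which sets the 4 knockout libraries against WT, the log2 fold change was −4.27 for AC015712.2, −3.39 for HDDC2 and −0.53 for TPD52L1.

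**Figure D2:**
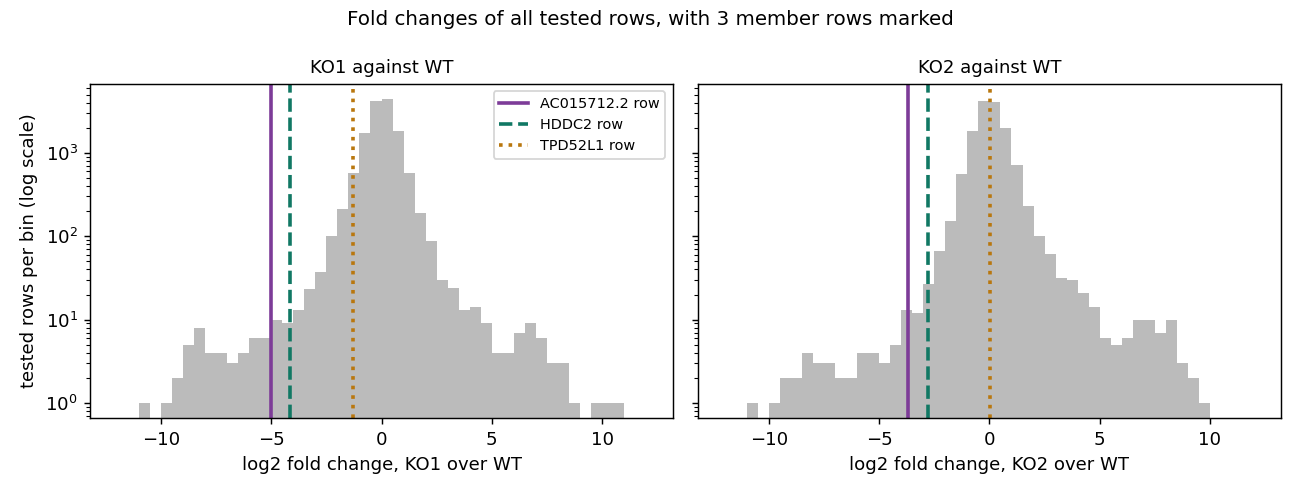
Number of tested rows (y axis, log scale) by log2 fold change against WT (x axis) in KO1 and KO2, with vertical lines at AC015712.2 (solid), HDDC2 (dashed) and TPD52L1 (dotted). The first pair lay in the far lower tail, with values of −5.00 and −4.14 for KO1 and of −3.69 and −2.77 for KO2, while TPD52L1 lay at −1.31 in KO1 and 0.04 in KO2.

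The knockout lines differed from each other by a like factor in these 3 rows. The log2 difference, KO1 minus KO2, was −1.31 ± 0.30 for AC015712.2, −1.37 ± 0.16 for HDDC2 and −1.35 ± 0.38 for TPD52L1 (± SE, n = 2 against 2). In CPM, KO2 was 2.52, 2.58 and 2.57 times KO1 for these rows. In all 3, each KO1 library was below each KO2 library. Over all tested rows, 20.4% were called between the lines and 10.3% were lower in KO1 than in KO2, at a Benjamini-Hochberg adjusted p under 0.05 by the edgeR quasi-likelihood test. Without KO1 library 1 the difference was −1.80 for AC015712.2, and without KO1 library 2 it was −0.97.

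The promoters of ALDH1A3, its antisense RNA AC015712.2 (ALDH1A3-AS1 in the table) and TPD52L1 are shown because the rows over ALDH1A3 and TPD52L1 had the same order of genotypes. They are the RefSeq windows of GRCh38.p14, from 250 bases before to 50 bases after the start, at chr15:100879581-100879880 on the plus strand, chr15:100919234-100919533 on the minus strand and chr6:125153996-125154295 on the plus strand. HDDC2 was not matched in the RefSeq table. Capitals mark GGGCGG (reverse complement CCGCCC) and CCAAT (reverse complement ATTGG), and adjoining or overlapping matches run together.
ALDH1A3: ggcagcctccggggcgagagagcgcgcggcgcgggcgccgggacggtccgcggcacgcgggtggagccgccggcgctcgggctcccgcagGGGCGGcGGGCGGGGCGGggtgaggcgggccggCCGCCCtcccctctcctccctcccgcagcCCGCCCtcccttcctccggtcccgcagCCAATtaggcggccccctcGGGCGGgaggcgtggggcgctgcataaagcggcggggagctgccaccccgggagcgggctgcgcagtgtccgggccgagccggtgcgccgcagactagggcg
ALDH1A3-AS1: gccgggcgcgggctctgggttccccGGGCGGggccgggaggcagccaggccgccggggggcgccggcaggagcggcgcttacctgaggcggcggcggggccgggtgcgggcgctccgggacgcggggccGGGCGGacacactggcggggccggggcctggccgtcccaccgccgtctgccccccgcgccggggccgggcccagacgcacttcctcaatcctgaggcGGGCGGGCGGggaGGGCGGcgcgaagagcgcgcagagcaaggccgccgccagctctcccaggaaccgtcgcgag
TPD52L1: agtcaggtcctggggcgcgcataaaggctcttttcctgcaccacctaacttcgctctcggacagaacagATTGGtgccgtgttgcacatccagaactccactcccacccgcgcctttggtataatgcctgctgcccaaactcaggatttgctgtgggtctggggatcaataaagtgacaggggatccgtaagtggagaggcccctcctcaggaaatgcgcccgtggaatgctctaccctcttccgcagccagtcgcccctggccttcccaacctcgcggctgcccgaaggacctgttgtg

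The letters of the promoters differed. Counting both strands, ALDH1A3 held 6 matches to GGGCGG and 1 to CCAAT, ALDH1A3-AS1 held 5 and 0, and TPD52L1 held 0 and 1. Of 35116 promoters of the same length, 45.0% held GGGCGG and 34.6% held CCAAT. None of the windows held AGGTCA, the half-site of retinoic acid receptors, found in 13.8% of promoters, or TATAAA, found in 11.5%. The G and C content was 81.7% for ALDH1A3 and 58.7% for TPD52L1, against a median of 58.7% over all promoters. A match is a description of letters and not of binding.

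The rows most like the members were sought by the Euclidean distance between log2 CPM profiles over the 6 libraries, each centred on its WT mean, among 13770 rows with a mean CPM of at least 1. For AC015712.2 the nearest row was AL133375.1, over CUL9, a cullin gene, at a distance of 0.99 against a median of 8.67. It held 9 and 11 reads in KO1, 24 and 21 in KO2, and 254 and 287 in WT. The next 4 rows were KRT43P, AC005041.3, AC007220.1 and HNRNPCP4, at distances of 1.42 to 1.5. They had no reads in any knockout library and 26 to 45 reads per WT library, so their nearness rests on the prior count of 2. HDDC2 was 13th in this order, at 1.83.

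For HDDC2 the nearest row was AC024563.1, over the zinc finger gene ZNF492, at a distance of 0.64 against a median of 7.04. It held 0 and 0 reads in KO1, 6 and 5 in KO2, and 44 and 41 in WT. SMIM8, over the connexin gene GJB7, and DTX3L, over PARP9, followed at 0.94 and 1.11, with 0 to 3 reads in each knockout library and 28 to 35 in WT. With so few knockout reads, the nearness of these 3 rows also rests on the prior count. AL133375.1 was the fourth, at 1.30. AC091980.2, over the homeobox gene TLX3, was the fifth at 1.45, with 2 and 9 reads in KO1, 22 and 23 in KO2, and 197 and 192 in WT.

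Rows in the same stretch of chromosome were not used to choose the members and were tested. Within 1 Mb of the start of ALDH1A3, 17 of 53 placed rows were tested. Of these, 4 were higher and 0 lower in KO1, and 5 were higher and 1 lower in KO2. That is 23.5% and 35.3% of them, against 23.6% and 29.0% of all tested rows called in either direction. Over all rows, 10.4% were higher and 13.3% lower in KO1, and 13.6% were higher and 15.4% lower in KO2. At an unadjusted p under 0.05, 2 neighbours were lower in KO1 and 1 in KO2. DESeq2 called 3 higher in KO1 and 5 in KO2, and 0 lower in either. Their log2 fold changes had a median of 0.10 in KO1 and 0.29 in KO2, against 0.01 and 0.02 over all tested rows, and none was below −0.86. The nearest was LRRK1, named for a protein kinase, whose start at 100919215 on the plus strand lies inside the first exon of AC015712.2, which begins at 100919283 on the minus strand. It held 49 and 38 reads in KO1, 49 and 43 in KO2, and 12 and 14 in WT. On the log2 scale it rose by 1.81 ± 0.36 in KO1 and 1.68 ± 0.36 in KO2, with adjusted p-values of 0.000179 and 0.000334 by edgeR. AC090907.2, over LRRK1, was at −0.86 and 0.73, and AC090695.1 at 0.07 and −0.26, not called. The other called neighbours, named after their values were seen, were LINS1 (0.43 in each line), AC023024.1 over the protease gene PCSK6 (0.77 and 0.61) and AC084855.1 over ADAMTS17 (0.41 and 0.74), higher in both lines, and CHSY1 (1.02, higher) and DNM1P47 (−0.23, lower) in KO2. AC084855.1 was not called in KO1 without a filter (0.41), by DESeq2 (0.41) or without WT library 1 (0.43), WT library 2 (0.38) or KO1 library 1 (0.33). DNM1P47 was not called with upper-quartile factors (−0.2), without a filter (−0.25), with the replicate block (−0.23), by DESeq2 (−0.24), or with any 1 of the KO2 and WT libraries left out (−0.28 to −0.18).

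Within 1 Mb of the start of TPD52L1, 6 of 12 placed rows were tested and 0 were called in either line by edgeR or DESeq2. At an unadjusted p under 0.05, 1 was lower in KO1 and 2 in KO2. Their median was −0.14 in KO1 and −0.21 in KO2. The nearest was RNF217-AS1, over the ubiquitin ligase gene RNF217, with 592 and 561 reads in KO1, 674 and 734 in KO2, and 573 and 595 in WT. It was at 0.06 and 0.13. RNF217, on the other strand, was at 0.74 and 0.10, and HEY2, named for a Notch target, at 0.82 and −1.58, not called. The HEY2 value in KO2 rested on single libraries: it was −3.64 without KO2 library 1 (adjusted p 0.00879, edgeR), −2.07 without WT library 2 (adjusted p 0.0289), −0.73 without KO2 library 2 and −0.89 without WT library 1. HEY2 differed between the lines, as given in the closing section.

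**Figure D3:**
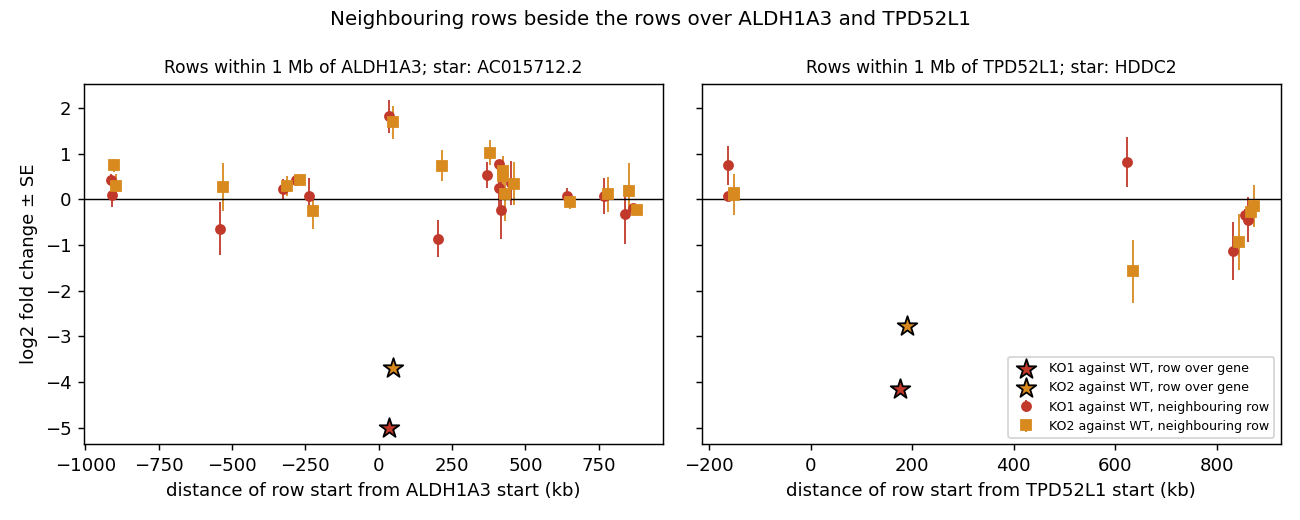
Log2 fold change against WT (y axis, ± SE, n = 2 against 2) of tested rows by distance of their start from the start of ALDH1A3 or TPD52L1 (x axis, kb), with circles for KO1, squares for KO2 and stars for the row over the gene. The neighbours of ALDH1A3 lay between −0.86 and 1.81 and those of TPD52L1 between −1.58 and 0.82, while AC015712.2 was at −5.00 and −3.69 and HDDC2 at −4.14 and −2.77.

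Among 26 other genes of retinoid metabolism, 10 rows were tested by their own name or through the row over them. In KO1, 2 were lower and 0 higher, and in KO2 4 were lower and 0 higher. That is 20.0% and 40.0% of them, against 23.6% and 29.0% of all rows. At an unadjusted p under 0.05, 2 were higher in KO1 and 0 in KO2, and DESeq2 called 0 higher in either line. The median was −0.07 in KO1 and −0.12 in KO2. By own name, 5 rows were tested, with 0 lower in KO1 and 1 in KO2. Through the row over the gene, 5 were tested, with 2 lower in KO1 and 3 in KO2. Over all 6 lists, 53 rows by own name held 3 higher and 2 lower in KO1, and 4 and 4 in KO2. The 26 rows over list genes held 6 higher and 8 lower in KO1, and 4 and 9 in KO2. The list shares given here pool these kinds, and the part of read depth was not tested. A gene tested both by its own name and through the row over it is counted for each. DHRS4 and DHRS4-AS1, both among the 4 lower in KO2, are such a pair, so the shares are of rows and not of separate genes. Both knockout lines share the WT libraries in this and the following counts.

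AC025431.1, over ALDH1A2, which makes retinoic acid in the embryo, held 1177 and 1078 reads in KO1, 1309 and 1313 in KO2, and 1473 and 1620 in WT. Every knockout library was below every WT library. It fell by 0.38 ± 0.07 in KO1 and 0.37 ± 0.07 in KO2 (adjusted p 7.56e-05 and 5.89e-05, edgeR). The ALDH1A2 row itself was at 0.54 and 0.71, not called, with 12 to 24 reads per library. ALDH1A1 had 3 to 7 reads per library and was not tested.

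ELMOD3, over RETSAT, which saturates retinol, fell by 0.55 ± 0.12 in KO1. In KO2 it was called at −0.30 ± 0.12, and not with upper-quartile factors (−0.27), without a filter (−0.32), by DESeq2 (−0.31) or without WT library 1 (−0.23), WT library 2 (−0.37) or KO2 library 2 (−0.17). DHRS4, named for a retinal reductase, fell by 0.67 ± 0.12 in KO2 and was at −0.04 in KO1. DHRS4-AS1, on the other strand, was called at −0.34 in KO2, but not without WT library 1 (−0.25) or by DESeq2 (−0.35).

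Of 19 rows of retinoic acid receptors and coregulators, 4 were higher in KO1 and 3 in KO2, that is 21.1% and 15.8%. The share of all rows called in either direction was 23.6% in KO1 and 29.0% in KO2. The median was 0.12 in KO1 and 0.07 in KO2. None was lower by edgeR or DESeq2 in either line, and 1 was lower at an unadjusted p under 0.05 in each. AC002553.1, over the corepressor gene NCOR1, held 662 and 595 reads in KO1, 644 and 605 in KO2, and 442 and 435 in WT. It rose 1.51-fold in KO1 and 1.30-fold in KO2 (adjusted p 3.35e-06 and 0.00158, edgeR), and the second call ended without KO2 library 1 (log2 0.30). CREBBP, named for a coactivator, was called at 0.99 and 0.87, and neither call held without WT library 2 (0.84 and 0.73), nor the one in KO2 by DESeq2 (0.86). AL035658.1, over EP300, another coactivator, was called at 0.34 in KO1, and not without WT library 1 (0.25).

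Of 15 rows of retinoic acid target genes, 1 was lower in KO1 and 3 in KO2, that is 6.67% and 20.0%. The share of all rows called in either direction was 23.6% in KO1 and 29.0% in KO2. The median was −0.13 in KO1 and 0.07 in KO2. None was higher by edgeR or DESeq2, and 1 was higher at an unadjusted p under 0.05 in each line. MEIS1-AS2, over the homeobox gene MEIS1, held 224 and 191 reads in KO1, 280 and 300 in KO2, and 402 and 377 in WT. It fell by 0.83 ± 0.12 and 0.56 ± 0.12. The row FOXA1, named for a forkhead factor, was called in KO2 at −1.30, and not without WT library 2 (−1.05) or KO2 library 2 (−0.74). DESeq2 did not call it (−1.32).

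Of 12 rows of other aldehyde dehydrogenases, 2 were higher and 1 lower in KO1, and 2 higher and 2 lower in KO2, that is 3 and 4 of the 12, the second count being 33.3%. The median was −0.03 in each line. BBOF1, over ALDH6A1, a mitochondrial dehydrogenase of valine breakdown, held 328 and 350 reads in KO1, 186 and 234 in KO2, and 569 and 625 in WT. It fell 1.66-fold in KO1 and 3.12-fold in KO2. The ALDH6A1 row, on the other strand, was at −0.34 in KO1 and fell by 0.91 in KO2. PIH1D1, over ALDH16A1, rose 1.72-fold in KO1 and 1.29-fold in KO2. The ALDH16A1 row, named after its values were seen, was at 0.11 in KO1 and was called at 0.6 in KO2. C12orf45, over ALDH1L2, was called at 0.46 in KO1, and not with KO1 library 2 (0.24), WT library 1 (0.43) or WT library 2 (0.48) left out, nor by DESeq2 (0.46).

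Of 10 rows of the TPD52 family and its partners, 2 were higher and 1 lower in KO1. In KO2, 2 were higher and 0 lower. That is 30.0% and 20.0%. The share of all rows called was 23.6% in KO1 and 29.0% in KO2. The median was 0.46 in KO1 and 0.45 in KO2. At an unadjusted p under 0.05, and by DESeq2, 0 were lower in KO2. TPD52L2, named for another family member, held 33 and 18 reads in KO1, 44 and 37 in KO2, and 40 and 45 in WT. It was at −0.66 and −0.20, not called, and TPD52 had 5 to 11 reads per library and was not tested. MAL2-AS1, over MAL2, a membrane protein that binds TPD52 proteins, held 52 and 54 reads in KO1, 134 and 130 in KO2, and 4 and 3 in WT, and rose 15.5-fold and 33.2-fold. PLP2, named for a proteolipid of the same kind, was called at −0.51 in KO1, and not without KO1 library 1 (−0.45), WT library 1 (−0.53) or WT library 2 (−0.5), nor by DESeq2 (−0.51).

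The rows YWHAE and YWHAZ are named for 14-3-3 proteins. YWHAE was called at 0.70 in KO1, and not without WT library 2 (0.39), KO1 library 1 (0.70) or KO1 library 2 (0.69). YWHAZ was called at 0.55 in KO2, and not without WT library 1 (0.53), WT library 2 (0.57) or KO2 library 2 (0.48). DESeq2 called neither (0.7 and 0.54).

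Of 17 rows of HD-domain proteins and nucleotidases, 1 was higher and 5 lower in KO1, and 1 higher and 4 lower in KO2. That is 35.3% and 29.4%. The share of all rows called was 23.6% in KO1 and 29.0% in KO2. The 5 lower in KO1 include both the row NT5C2 (−0.85) and CNNM2, which lies over it. The median was −0.16 in KO1 and 0.01 in KO2. UNC45A, over HDDC3, a relative of HDDC2, held 2101 and 2243 reads in KO1, 2729 and 2875 in KO2, and 1781 and 1882 in WT. It rose 1.26-fold and 1.39-fold. CNNM2, over the nucleotidase gene NT5C2, fell 1.51-fold and 1.27-fold, and AC022211.4, over the nucleotidase gene NT5C, fell by 0.34 and 0.56. STAB1, over NT5DC2, fell by 0.43 in KO2 and was at 0.01 in KO1.

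**Figure D4:**
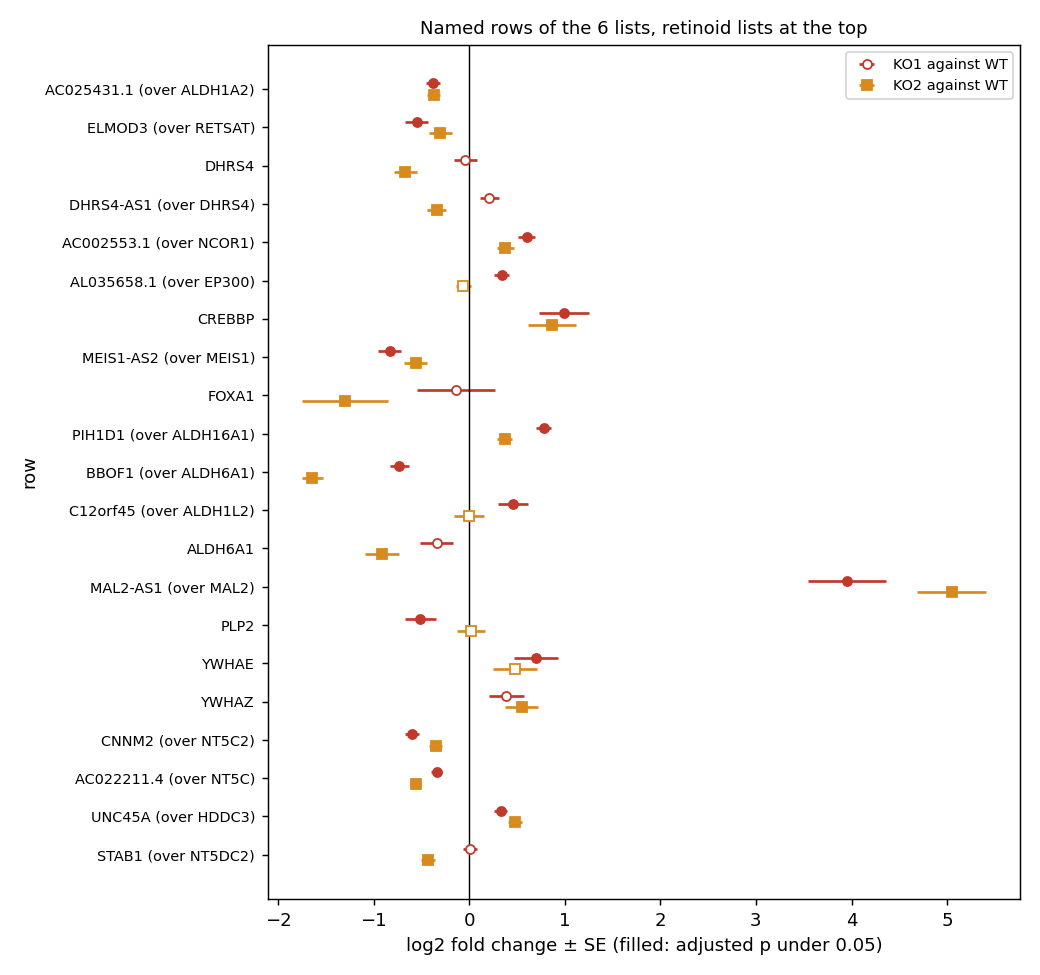
Log2 fold change against WT (x axis, ± SE, n = 2 against 2) of named rows of the 6 lists, with circles for KO1, squares for KO2 and filled symbols at an adjusted p under 0.05. MAL2-AS1 (3.95 and 5.05) stood apart from the other rows shown, which lay between −1.64 (BBOF1 in KO2) and 0.99 (CREBBP in KO1).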

How the data were processed

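RNA of 6 HEK293T libraries was measured. Per the submitters' processing notes reads were handled with STAR 2.7.1a, HTSeq 0.6.1p1, Trim Galore and limma, with builds hg38 and GRCh38.p6; neither annotation nor strand setting is stated in the sources used here. The authors deposited whole-number counts per gene symbol for 59087 rows, and a table of 11785 rows with FPKM values, log2 fold changes and q-values. The deposited FPKM and q-values support no statement here. The authors' gene sizes equalled the lowest exon block alone in 5122 of 11348 placed rows, so levels of different rows were not compared per length.

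Members and lists were chosen with earlier results of these data known. Counts were tested with edgeR 4.0.16 (R 4.3.3, quasi-likelihood F test, TMM, filterByExpr, 14184 rows, all 6 libraries in 1 fit, SE as the fold change over the root of F), with Benjamini-Hochberg adjustment over all rows and a threshold of 0.05. The procedure was tested on simulated data. Rows were placed on GENCODE v29 by symbol (56195 rows). A row was read as lying over an opposite-strand gene where at least 100 exonic bases were shared and made up at least 80% of its opposite overlap (bedtools 2.31.1). Named rows were the 4 members, the 5 rows nearest in profile to each of AC015712.2 and HDDC2, up to 3 called rows of smallest p per list and line, the 3 nearest neighbours of each gene, and ALDH1A1, ALDH1A2, TPD52, TPD52L2, THUMPD2 and GAPDH. A few such rows are not reported here. Alternatives were other scalings and filters, DESeq2 1.42.0, a replicate block, the compared groups only, wider or stricter neighbour and overlap limits, and leaving out each library.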

Additional observations from a re-analysis of the deposited data

Results flagged for a closer look

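Of 33 named rows other than the members and the rows of like profile, 15 differed between the knockout lines, tested as KO1 against KO2 by edgeR at an adjusted p under 0.05. Over all tested rows 20.4% did. Many of the 33 rows were named because they were called against WT in the same libraries and fit. Their share is therefore not comparable with that of all rows, and nothing is read from it. The values are log2 differences, KO1 minus KO2, and their causes were not tested. KO1 was higher than KO2 by 0.38 for AC006064.4 (over GAPDH), 0.22 for AC022211.4, 0.40 for AL035658.1, 0.57 for ALDH6A1, 0.91 for BBOF1, 0.46 for C12orf45, 0.63 for DHRS4, 0.55 for DHRS4-AS1, 0.41 for PIH1D1, 0.45 for STAB1 and 2.40 for HEY2. The lines were at −1.58 for AC090907.2, −0.25 for CNNM2, −1.10 for MAL2-AS1 and −0.53 for PLP2. AC090907.2 lies over LRRK1, the gene next to ALDH1A3, and held 13 and 13 reads in KO1, 46 and 45 in KO2, and 23 and 27 in WT. HEY2 held 20 and 22 reads in KO1, 8 and 1 in KO2, and 17 and 8 in WT, and its difference was not called without KO2 library 2 (1.55). Calls also ended for AC022211.4 without KO2 library 1 (0.19) or 2 (0.24), ALDH6A1 without KO1 library 1 (0.47) or KO2 library 2 (0.41), C12orf45 without KO1 library 2 (0.24) or KO2 library 1 (0.34), CNNM2 without KO2 library 2 (−0.20), and PLP2 without KO1 library 1 (−0.46) or KO2 library 1 (−0.41). DESeq2 did not call ALDH6A1 (0.58), C12orf45 (0.48), DHRS4-AS1 (0.57) or PLP2 (−0.51).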

How the results depend on the processing

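The falls of AC015712.2 and HDDC2 kept their direction in both lines under each alternative looked at for these rows. The other filters were not looked at for them. Leaving out 1 library at a time, AC015712.2 ranged from −5.49 to −4.66 in KO1 and −3.78 to −3.57 in KO2, HDDC2 from −4.32 to −3.98 and −2.79 to −2.73, and TPD52L1 from −1.61 to −0.97 and −0.23 to 0.38 (log2 against WT). The KO1 minus KO2 difference ranged from −1.80 to −0.97 for AC015712.2, −1.55 to −1.20 for HDDC2 and −1.65 to −1.11 for TPD52L1. The number of rows called also moved with the library left out. It was lower by DESeq2 than by edgeR in KO1, in KO2 and between the lines, and lower than with any 1 library left out. Over the 6 lists, DESeq2 called 7 rows higher and 8 lower in KO1, in place of 9 and 10 by edgeR. In KO2 it called 6 higher and 9 lower, in place of 8 and 13. With upper-quartile factors 55.6% of KO1 calls were higher, against 43.9%, and between the lines 56.2% against 49.5%. With 300 shared bases, list rows called numbered 11 in KO1 and 14 in KO2, in place of 19 and 21. With a 2 Mb window 9 neighbours were called in KO1 and 11 in KO2, in place of 4 and 6. These limits change which rows are counted. With the replicate block 3147 rows were called in KO1 and 3944 in KO2, against 3350 and 4118. Across all tested rows, same-numbered libraries did not deviate together (r from −0.029 to −0.021). An effect shared by part of the rows could be missed this way, so whether the numbers pair libraries was not settled. Of 63 calls of named rows, 41 held in every alternative and none reversed. With 2 libraries a group and at most 2 reads, the ALDH1A3 row could show no change.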
